A study of Mus musculus with 15 samples.

Results

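The 10 genes described here encode ligands and receptors of the TGF-beta family in mouse bone marrow-derived macrophages (BMDMs). They are 3 ligand genes (Tgfb1, Tgfb3 and Inhba), 5 type I receptor genes (Tgfbr1, Acvr1b, Acvrl1, Acvr1 and Bmpr1a) and 2 type II receptor genes (Tgfbr2 and Bmpr2). They were taken by name from a table of 20089 genes, and all 10 were found in it. BMDMs of wild-type C57BL/6 mice, all kept with M-CSF, the growth factor that macrophages need, were left without a further stimulus (control) or were given RANKL or LPS for 4 h or for 72 h. RANKL is the cytokine that turns these precursors into osteoclasts, and LPS is a bacterial cell wall component that activates macrophages. Each of the 5 groups had 3 samples, 15 in all. No group was labelled as kept in M-CSF alone for the further 72 h, so time in culture and stimulus cannot be told apart in a 72 h group set against control. The labels do not say that replicates came from separate animals or cultures, so p-values measure the spread between these samples, which may be technical.

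TGF-beta family ligands are secreted dimers that bring together type II and type I receptors, which are serine and threonine kinases at the cell surface. The type II receptor phosphorylates the type I receptor, which passes the signal to SMAD proteins that enter the nucleus. TGF-beta receptors and the activin receptor encoded by Acvr1b use SMAD2 and SMAD3, while BMP receptors use SMAD1, SMAD5 and SMAD8. In bone, TGF-beta and activin A are stored in the matrix, and both act on osteoclast precursors.

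The sequence before the start site is given for the 4 receptor and ligand genes whose levels are followed most closely below. Each run holds the 250 bases before the RefSeq start in the mouse build GRCm38.p6, 5′ to 3′ on the strand of the gene. Capitals mark the letters of the motifs searched, which were the AP-1 site TGANTCA, the NF-kappaB site GGGANTTCC, the GC-rich SMAD site GGCGCC, the GC box GGGCGG, the TATA box TATAAA and the ETS core GAGGAAGT, each on both strands.

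Inhba, chr13:16011601-16011850, plus strand: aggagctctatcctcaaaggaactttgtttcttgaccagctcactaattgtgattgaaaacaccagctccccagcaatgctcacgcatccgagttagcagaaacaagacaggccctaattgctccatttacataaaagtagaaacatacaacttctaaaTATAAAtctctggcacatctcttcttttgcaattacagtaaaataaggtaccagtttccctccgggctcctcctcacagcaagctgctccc
Acvr1b, chr15:101173822-101174071, plus strand: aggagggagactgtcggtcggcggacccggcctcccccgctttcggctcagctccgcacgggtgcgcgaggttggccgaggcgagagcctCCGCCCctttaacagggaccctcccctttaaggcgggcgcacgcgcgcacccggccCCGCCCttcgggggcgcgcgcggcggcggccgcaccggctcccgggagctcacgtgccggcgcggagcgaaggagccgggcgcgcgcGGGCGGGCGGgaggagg
Tgfbr1, chr4:47352972-47353221, plus strand: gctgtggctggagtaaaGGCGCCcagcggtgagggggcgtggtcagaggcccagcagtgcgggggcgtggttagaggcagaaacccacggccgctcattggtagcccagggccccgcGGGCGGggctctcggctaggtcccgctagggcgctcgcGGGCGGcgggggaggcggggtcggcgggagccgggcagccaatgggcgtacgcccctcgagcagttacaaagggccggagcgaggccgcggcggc
Tgfbr2, chr9:116175364-116175613, minus strand: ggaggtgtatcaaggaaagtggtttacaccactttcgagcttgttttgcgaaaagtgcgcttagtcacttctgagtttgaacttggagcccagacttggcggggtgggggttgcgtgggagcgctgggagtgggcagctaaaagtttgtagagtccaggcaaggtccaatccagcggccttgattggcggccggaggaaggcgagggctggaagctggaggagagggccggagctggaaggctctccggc

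The Inhba run held a TATA box 91 bases before the start and no other motif searched, and it had a GC content of 43.2%. Acvr1b had 4 GC boxes, including a pair that overlap, in a run with 78.8% GC. Tgfbr1 had 1 GC-rich SMAD site, 233 bases before the start, and 2 GC boxes. The Tgfbr2 run held none of these letters. Of 10 members, 8 had a promoter entry, and neither the AP-1, the NF-kappaB nor the ETS letters were in the window of any of the 8. Among 32851 promoters of the same length, 6.75% held the AP-1 letters, 1.43% the NF-kappaB letters, 9.59% the SMAD letters, 32.7% a GC box, 12.4% the TATA letters and 2.44% the ETS letters. Such matches describe letters only, and they show no binding.

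Expression was given as FPKM, the fragments per kilobase of transcript scaled by the mapped fragments of the sample, so that levels of different genes can be set side by side. The samples held between 18306184 and 20330207 recovered fragments each. Macrophage markers (8 genes) summed to between 6046 and 17490 FPKM in every sample. Osteoclast markers rose in RANKL 72 h, where 9 of 10 were called higher than in control, and LPS response markers rose in LPS 4 h, where 10 of 10 were called. Markers of other cells were also present. Stromal markers (18 genes, none under 0.1 FPKM in all 3 samples of a group) summed to 223 to 474 FPKM in control and to 564 to 2479 FPKM in RANKL 72 h. Neutrophil and progenitor markers (10 genes) summed to 7913 to 24340 FPKM in control and to 152 to 1816 FPKM in LPS 72 h, where 10 of 10 were called lower. Their sum in RANKL 72 h was 1850 to 7452 FPKM, also below every control sample, and 5 of 10 were called lower. Of the 9 B and T cell markers tested, 4 were called lower in RANKL 72 h and 6 in LPS 72 h. In LPS 72 h, replicate 3 stood apart from the other replicates, with the highest macrophage, stromal and neutrophil sums of its group. In such bulk samples, fewer cells of a type and less RNA per cell cannot be told apart.

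Among the 10 genes, Tgfb1 was the highest in every sample, at 105 to 147 FPKM. Tgfbr2 ranged from 12.7 to 58.8 FPKM, Tgfbr1 from 10.97 to 43.5, Acvrl1 from 11.1 to 28.2 and Acvr1b from 7.45 to 25.2 FPKM. Bmpr2 ranged from 3.01 to 8.41 FPKM and Acvr1 from 3.30 to 8.20 FPKM. Tgfb3 ranged from 0.585 to 13.5 FPKM and Inhba from 0.703 to 16.5 FPKM, the widest ranges among the 10 relative to their lowest value. Bmpr1a was the lowest on average, at 0.455 to 2.24 FPKM, with 58 to 271 fragments a sample, and the fewest fragments of any member in a sample, 42, were those of Tgfb3 in LPS 4 h, where it had 42 to 63.

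**Figure D1:**
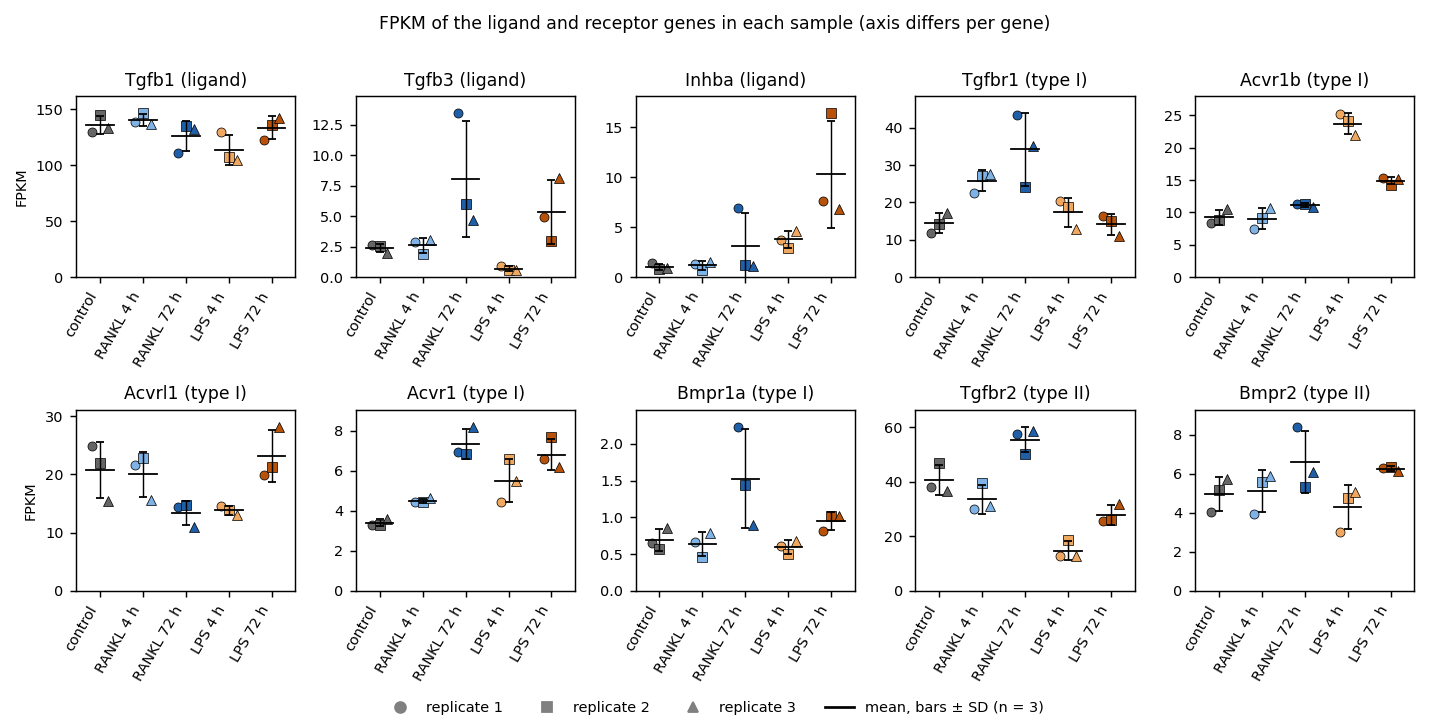
FPKM of each of the 10 genes (vertical axes, linear from 0 and different for each gene) in the 15 samples by group, with the mean as a line and the SD as bars (n = 3). Tgfb1 stayed between 105 and 147 FPKM in all groups, while Acvr1b peaked in LPS 4 h at 21.9 to 25.2 FPKM and Tgfbr2 in RANKL 72 h at 50.02 to 58.8 FPKM.

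Groups were compared with limma on log2(FPKM + 0.1), and p-values were adjusted by Benjamini-Hochberg over the 11743 genes tested. A gene was called when its fold change was above 1.5 or below 0.66 with an adjusted p under 0.05, and all 10 genes passed the filter of a mean of 0.1 FPKM over all samples. Folds on this scale understate the change of low genes. After RANKL for 4 h, none of the 10 genes was called, beside 0.119% of all genes tested called in either direction. With an unadjusted p under 0.05 in limma, 2 were higher, Tgfbr1 and Acvr1, and 0 lower, and voom on the recovered fragments called 0. Their median log2 fold change was 0.05, beside 0.00 over all genes tested. After RANKL for 72 h, 4 of 10 were called higher (Tgfb3, Tgfbr1, Bmpr1a and Acvr1), beside 16.6% of all genes, and 1 was called lower (Acvrl1), beside 7.54%. The median over the 10 was 0.71, beside 0.16 over all genes. After LPS for 4 h, Inhba, Acvr1 and Acvr1b were called higher, 3 of 10 beside 8.43% of all genes, and Tgfb3 and Tgfbr2 were called lower, 2 of 10 beside 39.7%. After LPS for 72 h, the same 3 genes, Inhba, Acvr1 and Acvr1b, were called higher, beside 13.0% of all genes, and none was called lower, beside 14.4% (1 gene was lower with an unadjusted p under 0.05 in limma, and voom called 0). The median over the 10 was 0.38 in LPS 72 h, beside 0.07 over all genes. Without replicate 3 of LPS 72 h, which stands apart, these 3 were still called, at 3.37, 1.04 and 0.68 on the log2 scale, and Tgfbr2 was called lower, at -0.64. The part that the lower neutrophil, progenitor and lymphocyte message has in the values of RANKL 72 h and LPS 72 h was not tested. These 4 comparisons share the control samples.

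The median gene itself moved by -0.52 on the log2 scale in LPS 4 h and by 0.16 in RANKL 72 h. When the median gene of every sample was set to the same level (centring), 4 of the 10 genes were called higher in LPS 4 h than in control, beside 15.9% of all genes, and 2 lower, beside 13.0%. The 4 were Inhba, Acvr1, Acvr1b and Tgfbr1, and the 2 were Tgfb3 and Tgfbr2. Centring left 3 of 10 called higher in RANKL 72 h against control, Tgfb3, Tgfbr1 and Acvr1, beside 9.94% of all genes, and 1 lower, Acvrl1, beside 12.2%. The median over the 10 in LPS 4 h was -0.20 before centring, above the -0.52 of all genes.

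**Figure D2:**
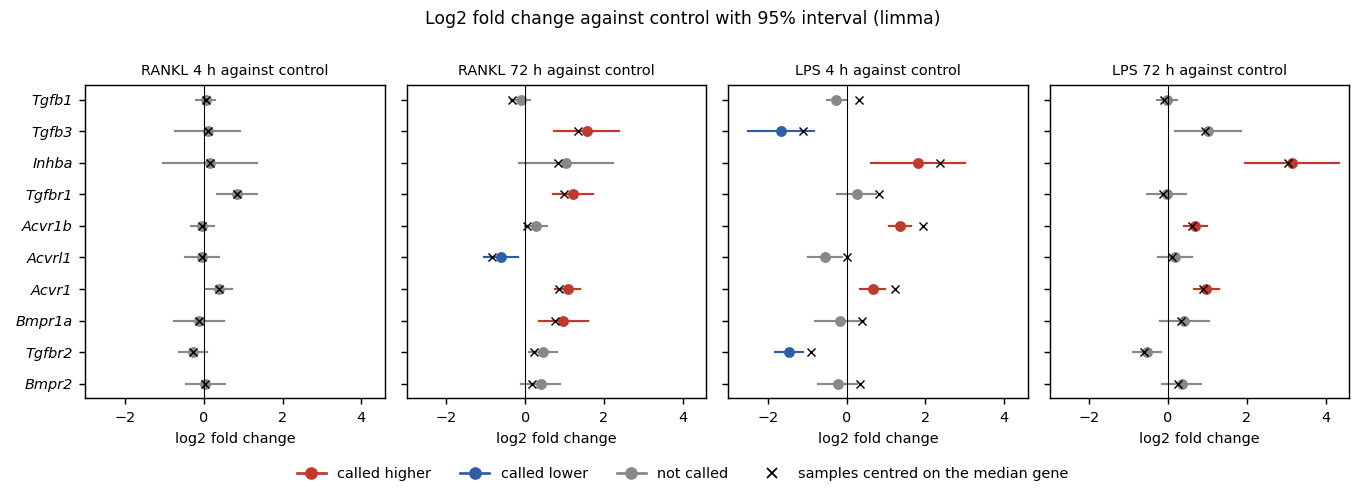
Log2 fold change of each gene against control (horizontal axes) with its 95% interval from limma, in 4 panels, coloured by call, with crosses for the value after samples were centred on the median gene. Acvr1 lay to the right of 0 in every panel, from 0.39 in RANKL 4 h to 1.08 in RANKL 72 h, and Inhba reached 3.14 in LPS 72 h.

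Tgfb1 encodes the TGF-beta ligand that macrophages mainly make, and it lies on chr7:25687002-25705077 (GRCm38). Control samples had 129.8, 145 and 133 FPKM, RANKL 4 h samples 139, 147 and 137, RANKL 72 h samples 111, 135 and 133, LPS 4 h samples 129, 107 and 105 and LPS 72 h samples 122, 136 and 142. Neighbours in the order of group means overlapped throughout, from 140.6 FPKM in RANKL 4 h down to 113.9 FPKM in LPS 4 h. Tgfb1 was called in none of the 8 comparisons. Its difference between LPS 4 h and control was -0.26 on the log2 scale (95% interval -0.50 to -0.02, limma adjusted p = 0.0621), and it was 0.31 after centring on the median gene. Its level thus stayed within a narrow range in all groups, unlike that of the other ligand genes.

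Tgfb3, on chr12:86056745-86079041, encodes a TGF-beta ligand that binds the same receptors as the product of Tgfb1. Control samples had 2.60, 2.58 and 2.01 FPKM, and RANKL 4 h samples 2.88, 1.91 and 3.02 FPKM. RANKL 72 h samples had 13.5, 5.98 and 4.67 FPKM, all above control, with replicate 1 far above the others. In LPS 4 h, Tgfb3 was at 0.907, 0.592 and 0.585 FPKM, all below every other sample, and in LPS 72 h it was at 4.93, 2.94 and 8.11 FPKM. Tgfb3 rose 2.95-fold in RANKL 72 h (log2 1.56 ± 0.39 SE, limma adjusted p = 0.00835) and fell by 1.67 on the log2 scale in LPS 4 h (limma adjusted p = 0.00221), with a value of -1.099 after centring. In LPS 72 h it differed from control by 1.01 on the log2 scale, with an adjusted p of 0.0554 (limma), although the ranges did not overlap. Without replicate 3 of LPS 72 h, this value was 0.66 (limma adjusted p = 0.187), and without replicate 2 it was 1.37 and was called (limma adjusted p = 0.0214). It was also called with samples rescaled to equal sums, at 1.04 (limma adjusted p = 0.0459). The direct comparison of LPS 72 h with LPS 4 h gave a 6.40-fold higher level (log2 2.68 ± 0.39 SE, limma adjusted p = 3.89e-05). The ratio of Tgfb1 to Tgfb3 FPKM was 49.9, 56.3 and 66.2 in control, 143, 181 and 179.6 in LPS 4 h, 8.26, 22.6 and 28.4 in RANKL 72 h and 24.8, 46.1 and 17.5 in LPS 72 h. LPS 4 h lay above the control range and both 72 h groups below it, each with a two-sided exact permutation p of 0.1, the smallest that 3 samples against 3 allow. Of the annotated exon bases of Tgfb3, 12.4% are shared with other genes, among them Ttll5 on the opposite strand, and no source used here says whether strand was used in counting.

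Inhba, on chr13:16011851-16031621, encodes the beta A subunit that forms activin A. Its run of 250 bases was the one with a TATA box among the 8. Control samples had 1.39, 0.768 and 0.914 FPKM, and RANKL 4 h samples 1.28, 0.703 and 1.52 FPKM, which overlapped with control. With LPS for 4 h the samples had 3.69, 2.96 and 4.66 FPKM and LPS 72 h samples 7.65, 16.5 and 6.83 FPKM, so that all 6 LPS samples were above all control samples. RANKL 72 h samples had 6.92, 1.26 and 1.11 FPKM, and replicate 1 was set apart from the other replicates, which lay within the control range. Inhba rose 3.48-fold in LPS 4 h (log2 1.80 ± 0.55 SE, limma adjusted p = 0.0126) and 8.79-fold in LPS 72 h (log2 3.14 ± 0.55 SE, limma adjusted p = 0.000777). In RANKL 72 h the difference from control was 1.05 on the log2 scale (95% interval -0.14 to 2.24, limma adjusted p = 0.165), and without replicate 1 it was 0.23. Inhba was 4.25-fold lower in RANKL 72 h than in LPS 72 h (limma adjusted p = 0.00744), although replicate 1 of RANKL 72 h was above the lowest LPS 72 h sample. Without that replicate the difference was -2.91 on the log2 scale, against -2.09 with it, and leaving out any other library of the pair of groups gave -2.32 to -1.64, each still called by limma. The step from LPS 4 h to LPS 72 h was 1.34 (limma adjusted p = 0.0462). After centring it was 0.69 (adjusted p = 0.307, limma) and was not called. The call was also lost without LPS 72 h replicate 1 or 2 or without any LPS 4 h replicate, with values from 0.94 to 1.497. A pseudocount of 0.01, no filter or no trend lost the call as well.

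Tgfbr1, on chr4:47353222-47414931, encodes the type I receptor for TGF-beta. Control samples had 11.9, 14.1 and 17.3 FPKM, RANKL 4 h samples 22.5, 27.2 and 27.6 FPKM and RANKL 72 h samples 43.5, 24.1 and 35.2 FPKM. All 6 RANKL samples were above all control samples, and the RANKL groups overlapped with each other. Tgfbr1 rose 2.33-fold in RANKL 72 h (log2 1.22 ± 0.23 SE, limma adjusted p = 0.00179), or by 0.998 on the log2 scale after centring. In RANKL 4 h its level was 1.79-fold that of control (log2 0.84, 95% interval 0.34 to 1.34), with a limma adjusted p of 0.331. With an unadjusted p under 0.05 in place of the adjusted one, Tgfbr1 was the 1 member called higher at 4 h, beside 1.21% of all genes tested. Under LPS, 4 h samples had 20.3, 18.9 and 13.0 FPKM and LPS 72 h samples 16.4, 14.9 and 10.97 FPKM, and both groups overlapped with control. Centred on the median gene, LPS 4 h was above control by 0.82 on the log2 scale (limma adjusted p = 0.0053), whereas the uncentred difference was 0.26. At 72 h Tgfbr1 was 2.38-fold higher with RANKL than with LPS (log2 1.25 ± 0.23 SE, limma adjusted p = 0.000643).

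Acvr1b, on chr15:101174067-101213684, encodes ALK4, the type I receptor for activin. Control samples had 8.32, 8.85 and 10.46 FPKM, RANKL 4 h samples 7.45, 9.10 and 10.6 FPKM and RANKL 72 h samples 11.2, 11.3 and 10.8 FPKM. LPS 4 h samples had 25.2, 24.1 and 21.9 FPKM and LPS 72 h samples 15.3, 14.3 and 15.1 FPKM, and the LPS groups overlapped neither with each other nor with any other group. Acvr1b rose 2.57-fold in LPS 4 h (log2 1.36 ± 0.13 SE, limma adjusted p = 1.84e-06), or by 1.93 after centring, and 1.62-fold in LPS 72 h (log2 0.69 ± 0.13 SE, limma adjusted p = 0.00125). From LPS 4 h to LPS 72 h it fell by 0.67 on the log2 scale (limma adjusted p = 0.000507). With RANKL it was not called at either time, with log2 differences from control of -0.03 at 4 h (95% interval -0.31 to 0.25) and 0.28 at 72 h (-0.01 to 0.56). The ratio of Acvr1b to Tgfbr1 FPKM was 0.605 to 0.702 in control, 0.331 to 0.385 in RANKL 4 h, 0.258 to 0.47 in RANKL 72 h, 1.24 to 1.69 in LPS 4 h and 0.93 to 1.38 in LPS 72 h. The RANKL samples were thus all below the control range and the LPS samples all above it, each group with a two-sided exact permutation p of 0.1.

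Acvr1, on chr2:58388644-58567157, encodes ALK2, a type I receptor for BMPs. Control samples had 3.31, 3.30 and 3.61 FPKM, and every other group lay above this narrow range. RANKL 4 h samples had 4.45, 4.42 and 4.62 FPKM, RANKL 72 h samples 6.95, 6.84 and 8.20 FPKM, LPS 4 h samples 4.45, 6.58 and 5.46 FPKM and LPS 72 h samples 6.57, 7.66 and 6.16 FPKM. Acvr1 rose 2.11-fold in RANKL 72 h (log2 1.08 ± 0.15 SE, limma adjusted p = 0.000207), 1.58-fold in LPS 4 h (log2 0.66 ± 0.15 SE, limma adjusted p = 0.002) and 1.96-fold in LPS 72 h (log2 0.97 ± 0.15 SE, limma adjusted p = 0.000304). The LPS 4 h fold was below 1.5 without replicate 2 of LPS 4 h, at 0.52 on the log2 scale, and with a pseudocount of 1, at 0.55. RANKL 4 h differed from control by 0.39 (limma adjusted p = 0.757). Between the stimuli at 72 h the difference was 0.11 on the log2 scale (95% interval -0.22 to 0.43), and the ranges overlapped.

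Bmpr1a, on chr14:34410734-34503341, encodes ALK3, another type I receptor for BMPs. RANKL 72 h samples had 2.24, 1.45 and 0.903 FPKM, against 0.653, 0.568 and 0.863 FPKM in control, so the lowest RANKL 72 h sample was just above the highest control sample. The other groups stayed between 0.455 FPKM in RANKL 4 h and 1.03 FPKM in LPS 72 h. Bmpr1a rose 1.96-fold in RANKL 72 h (log2 0.97 ± 0.29 SE, limma adjusted p = 0.0226). The call was lost after centring (0.75, limma adjusted p = 0.0635) and without control replicate 1 or 2 or without RANKL 72 h replicate 1 or 2, with values of 0.94, 0.85, 0.67 and 0.96. A pseudocount of 1 (0.55) or fitting only the 2 groups (limma adjusted p = 0.07) lost the call too. Of the exon bases of Bmpr1a, 4.57% are shared with an antisense gene.

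Acvrl1, on chr15:101128522-101145336, encodes ALK1, a type I receptor best known in endothelial cells. Control samples had 24.8, 21.9 and 15.4 FPKM and RANKL 72 h samples 14.3, 14.7 and 11.1 FPKM, all below control. Acvrl1 fell by 0.61 on the log2 scale in RANKL 72 h (limma adjusted p = 0.0314), or by 0.83 after centring. The call was lost without control replicate 1 or 2 or RANKL 72 h replicate 3, where the values were -0.47, -0.56 and -0.48. A pseudocount of 1 (-0.58) and samples rescaled to equal sums (-0.496) put Acvrl1 short of the fold limit. With only the 2 groups fitted, the limma adjusted p was 0.0595 and the call was lost as well. LPS 4 h samples had 14.6, 13.9 and 13.0 FPKM, a difference from control of -0.55 (limma adjusted p = 0.027) that fell short of the fold limit and was 0.02 after centring. LPS 72 h samples had 19.9, 21.3 and 28.2 FPKM, and Acvrl1 was 1.72-fold lower in RANKL 72 h than in LPS 72 h (limma adjusted p = 0.00553). The 10 endothelial markers summed to 4.12 to 28.6 FPKM over all samples, and Tek was under 0.1 FPKM in every group. Their sum was lower in every RANKL 72 h sample than in every control sample, and 2 of the 8 tested were called lower there, Kdr and Erg. In LPS 72 h, 3 of the 8 were called lower, Kdr, Esam and Erg, and in LPS 4 h 1, Erg. Acvrl1 in LPS 72 h differed from control by 0.17 on the log2 scale and was not called. The part of endothelial message in the Acvrl1 values was not tested. Of the exon bases of Acvrl1, 2.98% are shared with an antisense gene.

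Tgfbr2, on chr9:116084293-116175360, encodes the type II receptor that binds TGF-beta first. Control samples had 38.1, 46.8 and 36.8 FPKM, RANKL 4 h samples 29.9, 39.5 and 31.2 FPKM and RANKL 72 h samples 57.6, 50.02 and 58.8 FPKM. LPS 4 h samples had 12.7, 18.7 and 12.8 FPKM, below every sample of the other groups, and LPS 72 h samples had 25.6, 26.0 and 31.9 FPKM. Tgfbr2 fell by 1.47 on the log2 scale in LPS 4 h, or 2.77-fold (SE 0.17, limma adjusted p = 7.67e-06), and by 0.90 after centring (limma adjusted p = 0.00108). In LPS 72 h it was 0.54 lower on the log2 scale with a limma adjusted p of 0.0218, which did not reach the fold limit and did so after centring, at -0.62. In RANKL 72 h the difference was 0.46 (95% interval 0.10 to 0.81, limma adjusted p = 0.0516), with all 3 samples above control. Tgfbr2 was higher with RANKL than with LPS at both times, 2.28-fold at 4 h (limma adjusted p = 4.1e-05) and 1.99-fold at 72 h (limma adjusted p = 0.000286).

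The balance of the TGF-beta receptor genes is seen in the ratio of Tgfbr2 to Tgfbr1 FPKM. It was 3.21, 3.31 and 2.13 in control and 1.33, 1.45 and 1.13 in RANKL 4 h. In RANKL 72 h it was 1.32, 2.07 and 1.67, in LPS 4 h 0.627, 0.991 and 0.989 and in LPS 72 h 1.56, 1.74 and 2.90. Both RANKL groups and LPS 4 h lay below the control range, each with a two-sided exact permutation p of 0.1, and LPS 72 h overlapped with control, with a p of 0.2 by the same exact test. In RANKL 4 h the ratio was lower with Tgfbr1 at 1.79-fold and Tgfbr2 at 0.826-fold of control, whereas in LPS 4 h Tgfbr2 was at 0.362-fold and Tgfbr1 at 1.196-fold.

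**Figure D3:**
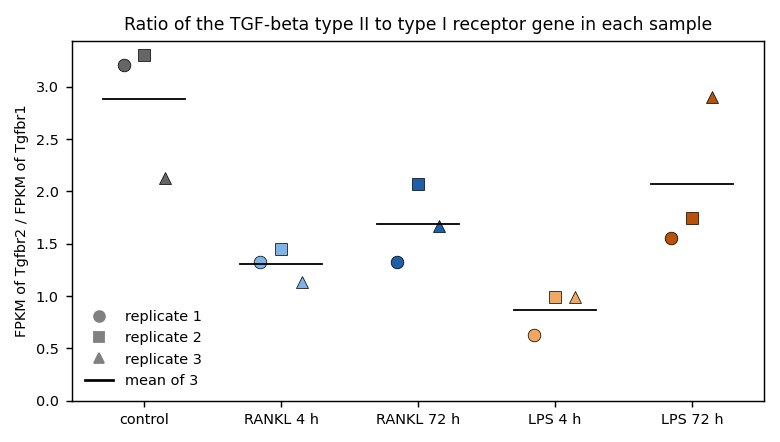
Ratio of Tgfbr2 to Tgfbr1 FPKM (vertical axis, from 0) in each of the 15 samples by group, with a line at the mean of 3. The LPS 4 h samples lie at 0.627 to 0.991, below all others, and the control samples at 2.13 to 3.31.

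Bmpr2, on chr1:59763400-59879014, encodes the type II receptor for BMPs. Control samples had 4.02, 5.15 and 5.72 FPKM, RANKL 4 h samples 3.91, 5.58 and 5.90 FPKM, RANKL 72 h samples 8.41, 5.33 and 6.08 FPKM, LPS 4 h samples 3.01, 4.78 and 5.08 FPKM and LPS 72 h samples 6.31, 6.33 and 6.12 FPKM. It was called in none of the 8 comparisons, and in RANKL 72 h the 95% interval of its log2 difference from control was -0.10 to 0.89.

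Between the stimuli at 4 h, Tgfb3 and Tgfbr2 were called higher with RANKL, 2 of 10 beside 41.0% of all genes, and Inhba and Acvr1b lower, 2 of 10 beside 8.98%. Centred on the median gene, the same 2 were higher, beside 13.5%, and Acvr1 joined Inhba and Acvr1b among the lower, 3 of 10 beside 16.2%. The Inhba call, at -1.65 on the log2 scale (limma adjusted p = 0.0195), was lost without LPS 4 h replicate 3 or RANKL 4 h replicate 2, at -1.49 and -1.35. At 72 h, Tgfbr1 and Tgfbr2 were called higher with RANKL, 2 of 10 beside 23.3% of all genes, and Inhba and Acvrl1 lower, 2 of 10 beside 12.8%. The receptor genes for TGF-beta itself were therefore both higher with RANKL than with LPS at 72 h, at 34.3 against 14.1 FPKM for Tgfbr1 and 55.5 against 27.8 FPKM for Tgfbr2 on average.

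With time on RANKL, from 4 h to 72 h, Tgfb3, Bmpr1a, Acvr1 and Tgfbr2 were called higher, 4 of 10 beside 16.4% of all genes, and none lower, beside 6.83% (1 with an unadjusted p under 0.05 in limma, and 0 by voom). Their log2 differences were 1.46, 1.08, 0.69 and 0.73. The Tgfb3 and Bmpr1a calls were lost without RANKL 72 h replicate 1, at 1.02 and 0.78, and without RANKL 4 h replicate 2, at 1.26 (Tgfb3) and 0.89 (Bmpr1a). Centred on the median gene, 2 of 10 were called higher, Tgfb3 (1.25) and Bmpr1a (0.86), beside 9.72% of all genes, and 1 lower, Acvrl1 (-0.79), beside 11.5%, while Tgfbr2 (0.51) and Acvr1 (0.47) fell short of the fold limit. With time on LPS, Tgfb3, Inhba, Acvrl1 and Tgfbr2 were called higher, 4 of 10 beside 44.2% of all genes, and Acvr1b lower, 1 of 10 beside 13.9%. Centred on the median gene, Tgfb3 was the 1 member higher, beside 18.8%, and Acvr1b and Tgfbr1 were lower, 2 of 10 beside 27.5%. Time in culture and time on the stimulus cannot be told apart in these comparisons.

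Stromal markers moved with part of these results. In RANKL 72 h, 10 of the 18 were called higher than in control by limma and none lower (0 also with an unadjusted p under 0.05 and by voom). After centring on the median gene, 4 of the 18 were called higher, beside 9.94% of all genes. The summed level of the 18 in RANKL 72 h was 2479, 1143 and 564 FPKM in replicates 1 to 3, and the values of Tgfb3, Bmpr1a and Inhba in these samples were in the same order. In LPS 72 h the sum was 211, 239 and 771 FPKM, and Tgfb3 was highest in replicate 3 as well. The sample with the most stromal message in its group was also the highest in Tgfb3 in 4 of 5 groups, in Acvrl1 in 3, in Bmpr1a, Inhba, Tgfbr1 and Tgfb1 in 2 each, in Tgfbr2, Bmpr2 and Acvr1b in 1 each and in Acvr1 in none. With 3 samples in a group, some matches arise without any link. That sample was replicate 1 in all groups except LPS 72 h, and same-numbered samples of those groups vary together, so the groups are not independent. Stromal markers in LPS 4 h summed to 241 to 446 FPKM, within the control range of 223 to 474 FPKM, while their Tgfb3 was below all control samples. Without replicate 1 of RANKL 72 h, Tgfb3 was still called higher than in control (log2 1.12, limma adjusted p = 0.0357), as were Tgfbr1 (1.02) and Acvr1 (1.11), and 4 of the 10 genes were called in place of 5. The part of stromal cells in these results was not tested.

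**Figure D4:**
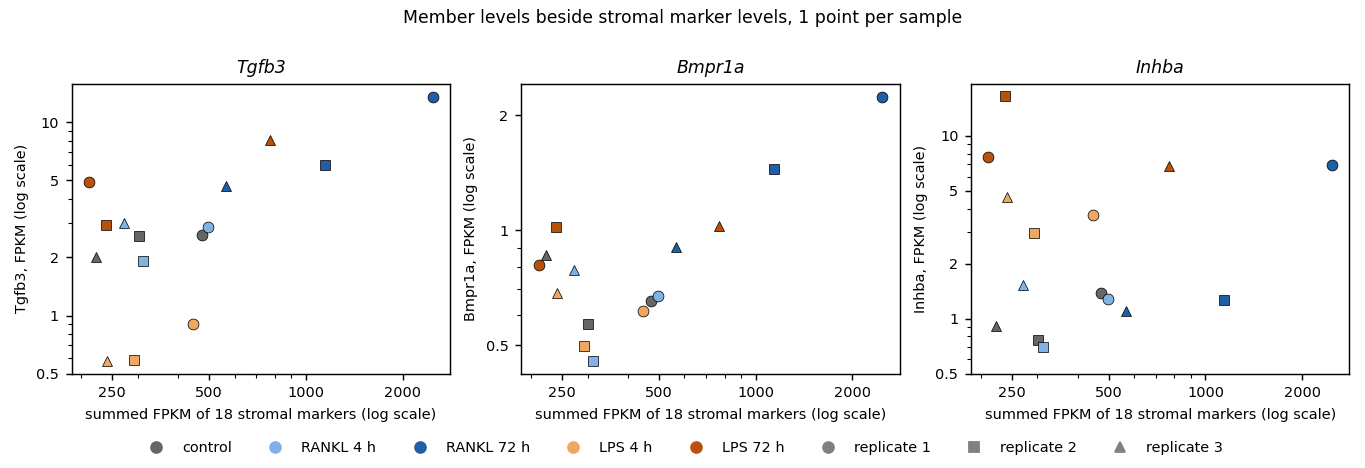
FPKM of Tgfb3, Bmpr1a and Inhba (vertical axes, log scale) against the summed FPKM of 18 stromal markers (horizontal axes, log scale), 1 point for each of the 15 samples. RANKL 72 h replicate 1 is at the far right of each panel, at 2479 FPKM of stromal markers, and the LPS samples reach the highest Inhba level, 16.5 FPKM, at 239 FPKM of stromal markers.

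Of 61 other genes of the pathway, 60 were in the table and 46 were tested. They cover other ligands, other receptors and co-receptors, proteins that store, activate or trap ligands, SMADs with their regulators, and response genes. After RANKL for 4 h, 4 of the 46 were called higher by limma, beside the 0.119% of all genes called in either direction, and none lower (0 also with an unadjusted p under 0.05 and by voom). Their median log2 fold change was 0.16, beside 0.00 over all genes. The 4 were Smad6 and Smad7, the inhibitory SMADs, Skil, a repressor of SMAD activity, and Id3, a target of BMP signalling. Smad6 went from 1.29, 0.501 and 0.533 FPKM in control to 10.9, 10.3 and 9.40 FPKM (log2 3.67, limma adjusted p = 0.00145) and Id3 from 20.03, 12.8 and 6.03 FPKM to 81.3, 70.7 and 54.1 FPKM (log2 2.54, limma adjusted p = 0.00886). Smad7 rose by 1.51 (limma adjusted p = 0.0449) and Skil by 1.36 (limma adjusted p = 0.0451). The count was 2 without control replicate 2 or 3 or without RANKL 4 h replicate 1 or 3, and 1, Smad6, without RANKL 4 h replicate 2. With the replicate number as a block it was 6, with Id1 (log2 2.15, limma adjusted p = 0.165 without and 0.0305 with the block) and Id2 (1.83, limma adjusted p = 0.086 without and 0.0215 with the block) added, a pair picked for mention with these values in view. The ligand and receptor genes themselves had no call at that time.

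After RANKL for 72 h, 14 of the 46 were called higher, beside 16.6% of all genes, and 4 lower, beside 7.54%, and without control replicate 2 the calls numbered 11 in all. After centring 10 were called higher, beside 9.94%, and 7 lower, beside 12.2%. Id1 fell by 2.11 on the log2 scale (limma adjusted p = 0.00591), and Smad6 and Smad7 were not called, at 0.75 and 0.38. Gdf15, a distant ligand of the family, fell by 3.41 (limma adjusted p = 6.99e-07). Among genes for storage and trapping, 6 of 14 were called higher, including Ltbp2 and Ltbp3, of the latent TGF-beta binding protein family, at 1.56 and 1.58, and Fstl1 and Fstl3, of which Fstl3 traps activin, at 1.66 and 1.95. The Fstl1 call was lost after centring, at 1.44 (limma adjusted p = 0.0675), as were those of Smad3 (0.51), Skil (0.44) and Pmepa1 (1.13), while Eng, Nrros and Gdf9 were then called lower. Acvr2a, a type II receptor for activin, rose by 1.13 (limma adjusted p = 0.00368). Tgfb2 rose by 1.83 (limma adjusted p = 0.0224) with 5.78, 1.96 and 1.21 FPKM, in the order of the stromal sum.

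After LPS for 4 h, 5 of the 46 were called higher, beside 8.43% of all genes, and 10 lower, beside 39.7%, and after centring 18 higher and 3 lower, beside 15.9% and 13.0%. Furin, the protease that cuts ligand precursors, rose by 1.77 (limma adjusted p = 1.04e-06) and Skil by 2.34. Id3, also called in RANKL 4 h, rose by 1.64 (limma adjusted p = 0.000593), or by 2.20 after centring. Nrros, which anchors latent TGF-beta 1 on myeloid cells, fell by 2.02 (limma adjusted p = 1.64e-06), Smad3 by 1.86 and Ski by 1.38, and these 3 were the ones that were still lower after centring. Smad3 had 4.18, 4.41 and 3.42 FPKM in control and 1.14, 1.13 and 0.83 FPKM in LPS 4 h. After LPS for 72 h, 13 were called higher and 4 lower, beside 13.0% and 14.4% of all genes. Smad6 (2.12), Smad7 (1.32), Skil (1.30) and Id3 (1.44) rose, as did Grem1 (1.49), a BMP trap, and Thbs1 (1.80), an activator of latent TGF-beta. Bambi, a pseudoreceptor, fell by 0.97. These lists were chosen with earlier results known, so their counts are a description.

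**Figure D5:**
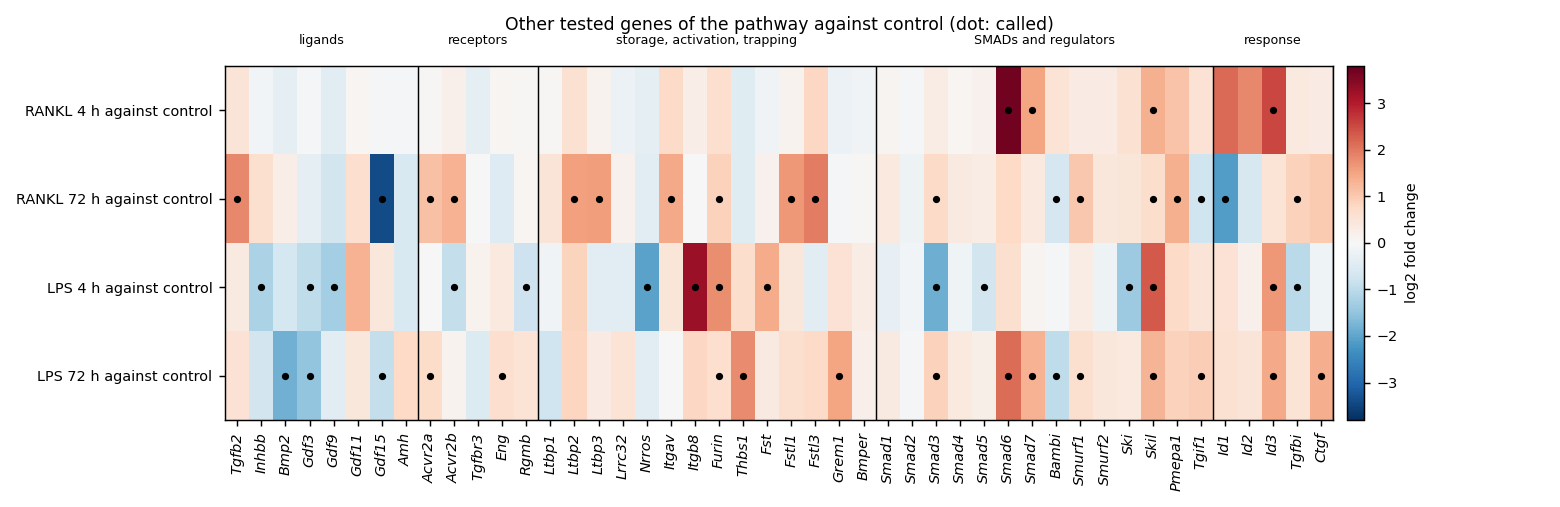
Log2 fold change against control (colour, red higher and blue lower) of the 46 other tested genes of the pathway (columns, by role) in the 4 comparisons with control (rows), with a dot where the gene was called. The RANKL 4 h row has 4 dots, for Smad6, Smad7, Skil and Id3, and the row for RANKL 72 h has 18.

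The genes whose log2 level followed a member most closely over the 15 samples were searched among 9485 genes or more. For Tgfb3 this was C1qtnf6 (Pearson r = 0.986), for Tgfbr2 Sgpp1 (0.977), for Acvr1b Rab11fip1 (0.975), followed by Slc39a14 (0.973) and Ebi3 (0.96), for Acvrl1 Lst1 (0.939), for Bmpr1a Trip6 (0.926), for Acvr1 Atp9b (0.925), for Inhba Qsox1 (0.912) and for Tgfbr1 Ctnnb1 (0.871). For Bmpr1a the next were Col12a1 (0.917) and Fn1 (0.907), both matrix genes. Among the members themselves, the log2 levels of Tgfb3 and Tgfbr2 had r = 0.754 over the samples, although their differences from control in LPS 72 h had opposite signs, 1.01 and -0.54. Those of Tgfbr2 and Acvr1b had r = -0.784, although both differences from control in RANKL 72 h were above 0, at 0.46 and 0.28. All 15 points share the 5 groups, so these values describe the group pattern and carry no test.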

How the data were processed

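The 15 RNA-seq samples of mouse BMDMs were put in 5 groups of 3 by their labels. The authors deposited FPKM values, 1 per gene and sample, made with StringTie and Ballgown, and the submitters' processing notes name the builds GRCm38.p4 and mm10. The aligner is not given in the sources used here. The table has 20089 complete entries, and its last entry, for Ttk, is incomplete, so genes after it in alphabetical order were not analysed here. Each gene's FPKM could be divided back into whole fragments (within 0.01) for 14485 of the 14485 genes above 0 in at least 3 samples, which gave 18306184 to 20330207 fragments per sample, so the depth differed little between samples. The genes described and all lists were chosen with earlier results of these data known.

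Tests used limma 3.58.1 (R 4.3.3) on log2(FPKM + 0.1) for 11743 genes whose mean over all samples reached 0.1 FPKM, with 1 fit over the 5 groups, a trend in eBayes and Benjamini-Hochberg adjustment. Ratios were tested with an exact permutation test (scipy 1.17.1), two-sided. The fit was tested on simulated data. The study's own rule, an unadjusted p, was an alternative, beside other pseudocounts, filters, scalings, the 2 groups alone, no trend, no fold limit, voom on recovered fragments, a replicate block and leaving out each replicate. From each list of other pathway genes, at most the 4 called genes with the largest change and a mean of at least 1 FPKM could be named per comparison with control, and for each called member the 3 genes with the highest correlation. Exceptions are stated in the text. A gene of the pathway lists is not reported here and is left out of their counts. Loci come from the GENCODE annotation of GRCm38, and promoters from RefSeq (GRCm38.p6).

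Replicate numbers are shared between groups. Over 9486 genes, deviations from the group mean of same-numbered samples correlated by more than 0.1 in every pair of groups without LPS 72 h (0.103 to 0.842), and by -0.229 to 0.184 in pairs with it, so the numbers appear to pair samples except with LPS 72 h. The main fit and the exact permutation tests did not use this pairing. Only the replicate block, an alternative setting, did so.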

Additional observations from a re-analysis of the deposited data

Results flagged for a closer look

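Each result here is the direct contrast of 1 stimulus at 72 h with the same stimulus at 4 h, in limma with Benjamini-Hochberg adjustment. No unstimulated group was labelled for 72 h, so time in culture and time on the stimulus cannot be told apart here. With RANKL, Tgfb3, Bmpr1a, Tgfbr2 and Acvr1 were higher at 72 h than at 4 h. The log2 differences were 1.46 for Tgfb3 (limma adjusted p = 0.0126) and 1.08 for Bmpr1a (limma adjusted p = 0.0138). They were 0.73 for Tgfbr2 (limma adjusted p = 0.00541) and 0.69 for Acvr1 (limma adjusted p = 0.00441). After centring on the median gene, these values were 1.25 for Tgfb3, 0.86 for Bmpr1a, 0.51 for Tgfbr2 and 0.47 for Acvr1, and the last pair fell short of the fold limit.

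With LPS, Tgfb3, Inhba, Tgfbr2 and Acvrl1 were higher at 72 h than at 4 h, and Acvr1b was lower. The log2 differences were 2.68 for Tgfb3 (limma adjusted p = 3.89e-05) and 1.34 for Inhba (limma adjusted p = 0.0462). They were 0.93 for Tgfbr2 (limma adjusted p = 0.000235), 0.72 for Acvrl1 (limma adjusted p = 0.00521) and -0.67 for Acvr1b (limma adjusted p = 0.000507). Against control, Tgfbr2 was at -1.47 at 4 h and -0.54 at 72 h, and Acvrl1 at -0.55 and 0.17. Tgfb3 was at -1.67 and 1.01 against control, Inhba at 1.80 and 3.14 and Acvr1b at 1.36 and 0.69. After centring on the median gene, the differences between 72 h and 4 h with LPS were 2.03 for Tgfb3, 0.69 for Inhba, 0.28 for Tgfbr2, 0.07 for Acvrl1 and -1.31 for Acvr1b. The calls of Inhba, Tgfbr2 and Acvrl1 were lost after centring. The Inhba call was also lost without LPS 72 h replicate 1 or 2, and without any LPS 4 h replicate. Acvrl1 fell short of the fold limit without LPS 72 h replicate 3, at 0.57.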

How the results depend on the processing

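Of 1432 values of the 10 members under alternative settings, 1324 kept their direction and their side of the threshold. Of the rest, 36 were no longer past it, 31 newly passed it, 6 reversed, and 35 that had no direction in either fit changed sign. The unadjusted p and no fold limit only loosen the threshold on the main fit, so their values could not change sign or lose a call. Their 78 and 72 unchanged values are among the 1324. Bmpr1a has no value under the 1 FPKM filter. All 6 reversals came with centring on the median gene. Acvrl1 was then at 0.015 in LPS 4 h against control and at -0.057 in RANKL 4 h against LPS 4 h, Tgfb1 at -0.26 in the latter and at -0.42 in LPS 72 h against LPS 4 h, where Bmpr2 was at -0.08 and Acvr1 at -0.34.

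Counts of members called moved as follows. In RANKL 4 h, 1 was called with an unadjusted p. In RANKL 72 h, 3 were called with a pseudocount of 1 and 3 with only the 2 groups fitted, and 3 to 5 when leaving out 1 replicate. In RANKL 4 h against LPS 4 h, 7 were called with no fold limit. From RANKL 4 h to 72 h, 2 to 5 were called when leaving out 1 replicate, and from LPS 4 h to 72 h 3 were called after centring. Of the other pathway genes in RANKL 4 h, 2 were called with no filter, 2 after scaling to equal sums, 2 with no trend, 0 with only the 2 groups fitted by limma, 8 with an unadjusted p, and 1 to 4 when leaving out 1 replicate. In RANKL 72 h they were 11 to 17 when leaving out 1 replicate. The cause was not tested.

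With the replicate block, Tgfb3 in LPS 72 h against control was called (1.01, limma adjusted p = 0.035), a comparison in which the numbers do not pair the samples, and the block changed no other call of a member. The lowest gene on average, Bmpr1a, rests on 58 to 271 fragments a sample, and Tgfb3 on 42 to 891.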
